A study of Homo sapiens with 4 samples.

Results

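The genes described here are those that SKOV3 cells expressed and HeyC2 cells did not. A gene was taken when its level was at least 10 FPKM in the SKOV3 control library and at most 0.1 FPKM in the HeyC2 control library, where FPKM is the number of sequenced fragments scaled by transcript length and by depth. Of 26506 genes in the tables, 107 met both limits. SKOV3 and HeyC2 are established human ovarian cancer cell lines. In each line, cells were transfected with 3 μg of the plasmid pCMV6 carrying TET1, or with the empty plasmid as control, and all cells were kept under Geneticin at 400 μg/ml. The vector's CMV promoter drives TET1, and no single-cell clone is named. RNA was sequenced from 1 library per condition, 4 in all, so no value has a replicate error, no test was possible, and every difference below is one between 2 libraries.

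TET1 is an enzyme that oxidises 5-methylcytosine, mostly at CpG dinucleotides, and so starts the removal of this mark from DNA. Genes whose start site lies in a methylated CpG island are commonly silent. Epithelial carcinoma cells typically keep junction proteins such as EPCAM and plakoglobin, and lose part of them when they become mesenchymal. DNA methylation was not analysed here, so the values below are RNA levels only.

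The deposited TET1 values had been multiplied by a constant that made GAPDH equal to its control level, 5417 FPKM in HeyC2 and 2248 FPKM in SKOV3. The constant was 3.2344 in HeyC2 and 1.3456 in SKOV3, and all TET1 values below were divided by it. TET1 itself was listed at 0.20 FPKM in the HeyC2 control and 0.52 FPKM in HeyC2 TET1, and at 0.43 FPKM in the SKOV3 control and 1.80 FPKM in SKOV3 TET1. The estimated depth was 6715000 to 7405000 fragments per library. All 33 of 33 genes used by every cell were over 1 FPKM in every library. The epithelial keratins KRT8 and KRT18 and the transcription factor PAX8 were over 70 FPKM in all 4 libraries, whereas the ovarian markers WT1 and MUC16 were at most 0.53 FPKM. KRT7 was at 290 and 1125 FPKM in HeyC2 control and TET1 and at 1537 and 21.96 FPKM in SKOV3, and the summed level of the 10 epithelial ovarian markers was 1318 and 2162 FPKM in HeyC2 and 2393 and 1207 FPKM in SKOV3. ERBB2, the gene of the SKOV3 amplicon, was at 20.1 and 23.8 FPKM in HeyC2 control and TET1 and at 1282 and 1464 FPKM in SKOV3.

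The SKOV3-restricted genes ranged from 10.2 to 207 FPKM in the SKOV3 control, with a median of 17.5 FPKM. Only 4 of them reached 100 FPKM and 59 lay under 20 FPKM. In the HeyC2 control 71 were listed at 0 and the other 36 reached at most 0.10 FPKM. The genes were chosen by these values in the control libraries, which are given as a description. The genes just inside the SKOV3 limit were ZNF528 at 10.2, SLC29A2 at 10.6 and FGFR4 at 10.6 FPKM, and those just outside it were MXRA5 at 9.93, LOC613266 at 9.85 and DCAF12L1 at 9.80 FPKM. At the HeyC2 limit, MAL2, HLA-F and UPK3B were inside at 0.10 FPKM, and PTGIS, CDH16 and CPT1A were outside at 0.11 FPKM. In the HeyC2 control no gene of the set rested on more than 7.06 estimated fragments. In HeyC2 TET1, 1 fragment was worth 0.0707 FPKM in the median gene of the set.

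**Figure D1:**
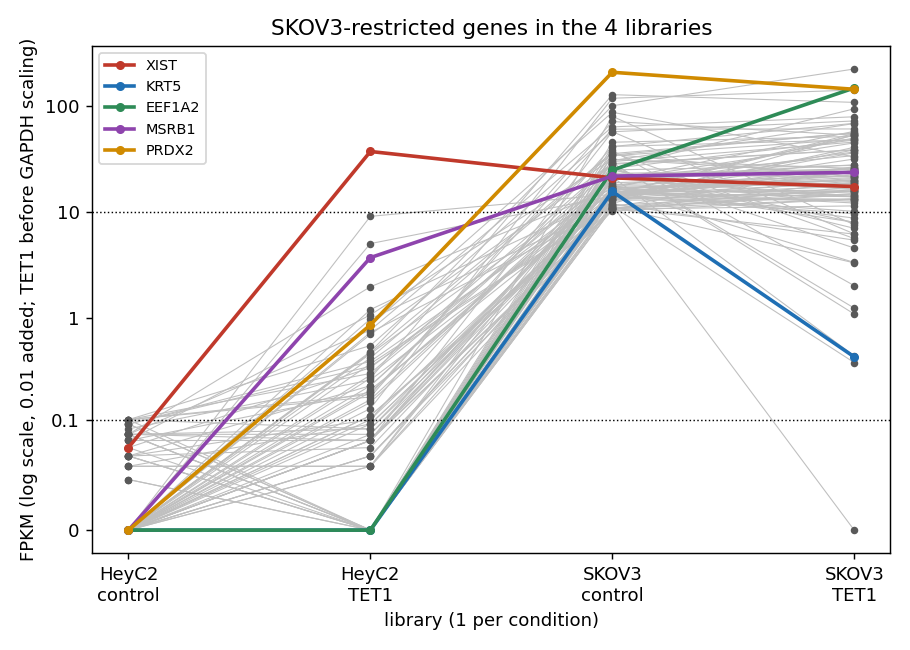
FPKM of the 107 SKOV3-restricted genes in the 4 libraries, 1 grey line per gene, on a log scale with 0.01 FPKM added and with dotted lines at the limits of 0.1 and 10 FPKM. The control libraries were used to choose the genes. In the TET1 libraries XIST reached 37.1 FPKM in HeyC2, KRT5 was at 0.42 FPKM in SKOV3 and EEF1A2 was at 147 FPKM in SKOV3.

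By the annotation, 98 of the 107 genes code for protein, 7 are long noncoding RNAs, 1 is a transcribed pseudogene and 1 had no entry. They fell into classes that were made by hand after the gene names were known. The largest were 14 metabolic, redox and repair enzymes, 12 genes of epithelial junctions, polarity and keratins, 11 secreted and matrix proteins, 11 receptors, ligands and surface proteins and 10 transcription and chromatin factors. No named class therefore held more than 14 of the 107 genes, and 15 genes were left without a class. Against wider gene lists, 5 of 63 genes of epithelial adhesion were in the set, namely EPCAM, JUP, CRB3, MAL2 and MAL. The set held 2 of 61 cancer-testis antigens, PRAME and SPANXB1, and these were the list's 2 genes at 10 FPKM or more in the SKOV3 control. It held 2 of 57 immune genes (HLA-F and LCN2), 2 of 39 transporters and channels (SLC29A2 and CLIC3), and 1 each of 21 keratins (KRT5), 56 receptors (FGFR4), 58 metabolic enzymes (PTGES) and 36 genes known for silencing by methylation (MGMT). The set held none of the listed HOX genes (0 of 39), mesenchymal genes (0 of 28) or genes of the ovarian and Müllerian lineage (0 of 33). It also held none of the listed growth factors, hormones and their binding proteins (0 of 63). The lists are not complete, as the hormone subunit CGB8 is in the set but on none of them. Over all genes the set is 107 of 26506, so lists of this size would hold few or no members at that share.

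Among the most abundant genes were enzymes. PRDX2, a peroxiredoxin that reduces hydrogen peroxide, was at 207 FPKM in the SKOV3 control and 143 FPKM in SKOV3 TET1, and at 0 and 0.85 FPKM in HeyC2 control and TET1. PLPP2, a phosphatase of bioactive lipids, was at 118 and 141 FPKM in SKOV3 control and TET1 and at 0 and 0.13 FPKM in HeyC2. Both stayed over 100 FPKM in both SKOV3 libraries and under 1 FPKM in both HeyC2 libraries. PPP1R1B, an inhibitor of protein phosphatase 1 also called DARPP-32, was at 128 and 108 FPKM in SKOV3 control and TET1 and at 0 and 0.26 FPKM in HeyC2. The gene ends 51288 bp before the start of ERBB2 on chromosome 17. OCIAD2 was at 100.2 FPKM in the SKOV3 control and 223 FPKM in SKOV3 TET1, the highest level of the set in that library. It was at 0 and 0.47 FPKM in HeyC2 control and TET1. MGMT, the enzyme that repairs alkylated guanine, was at 28.1 and 38.4 FPKM in SKOV3 control and TET1 and was listed at 0 in both HeyC2 libraries.

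Genes of epithelial structure were split in SKOV3 TET1, with 3 of 12 at least 1.5-fold higher, 3 at least 1.5-fold lower and 6 between, beside 28.6% higher and 11.5% lower over all genes tested. EPCAM, the epithelial adhesion molecule, was at 15.4 and 16.1 FPKM in SKOV3 control and TET1 and at 0.09 and 0.38 FPKM in HeyC2. JUP, which encodes plakoglobin of desmosomes and adherens junctions, was at 41.4 and 47.8 FPKM in SKOV3 and at 0.04 and 0.10 FPKM in HeyC2. Both were within 1.5-fold between the SKOV3 libraries. MAL2 and MAL, proteins of apical membrane transport, were at 71.2 and 34.4 FPKM in the SKOV3 control and at 52.8 and 55.6 FPKM in SKOV3 TET1, so MAL was higher and MAL2 was not. CRB3, a protein of apical polarity, was at 20.8 and 13.8 FPKM in SKOV3 and listed at 0 in both HeyC2 libraries. The keratin KRT5, typical of basal epithelium, was at 15.6 FPKM in the SKOV3 control and 0.42 FPKM in SKOV3 TET1 and was listed at 0 in both HeyC2 libraries. UPK3B, a uroplakin found in mesothelium and urothelium, was at 57.1 and 6.20 FPKM in SKOV3 and at 0.10 and 0.54 FPKM in HeyC2. KRT5 and UPK3B were thus 37.1-fold and 9.21-fold lower in SKOV3 TET1, unlike the junction and polarity genes just named.

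Transcription and chromatin factors held 4 genes that were at least 1.5-fold lower in SKOV3 TET1, 2 that were higher and 4 between, out of 10, beside the same 11.5% lower and 28.6% higher over all genes. ID4, an inhibitor of basic helix-loop-helix factors, was at 79.8 FPKM in the SKOV3 control and 7.57 FPKM in SKOV3 TET1, a 10.5-fold lower level. It was at 0.04 and 0 FPKM in HeyC2 control and TET1. HR, the corepressor named hairless, was at 26.2 and 4.56 FPKM in SKOV3 and at 0.03 FPKM in both HeyC2 libraries. In contrast the zinc finger gene ZSCAN18 was higher, at 41.4 FPKM in the SKOV3 control and 68.5 FPKM in SKOV3 TET1.

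Across the whole set the median change in SKOV3 TET1 was close to that of all genes. The change of each gene was taken as the log2 ratio of TET1 to control after adding 1 FPKM to both, a scale that understates the change of low genes. Counts of genes past a fold limit use this scale, whereas a fold printed for a single gene is the plain ratio of its levels, with nothing added. The median was 0.20 over the 107 genes, 0.19 over the 13016 genes with a mean of at least 1 FPKM and -0.05 over the other 6596 genes with at least 10 FPKM in the SKOV3 control. Of the 107 genes, 29 (27.1%) were at least 1.5-fold higher, beside 28.6% of the 13016 genes and 13.1% of the 6596. Another 21 (19.6%) were at least 1.5-fold lower, beside 11.5% and 16.8%, and 57 lay between. The share that was higher was thus close to that of all genes tested and above that of the other genes over the SKOV3 limit, which were not matched for level and had a median of 27.2 FPKM in the SKOV3 control. The SKOV3 control also chose the genes, so a gene whose value was high by chance in that library is expected to read lower in any other library, and this part of the contrast cannot be told apart from a change. On the values as deposited, with the GAPDH scaling kept, the median of all genes shifted by 0.40 and the split was 57 genes higher (53.3%, beside 50.2% of all genes) and 18 lower (16.8%, beside 4.39%).

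**Figure D2:**
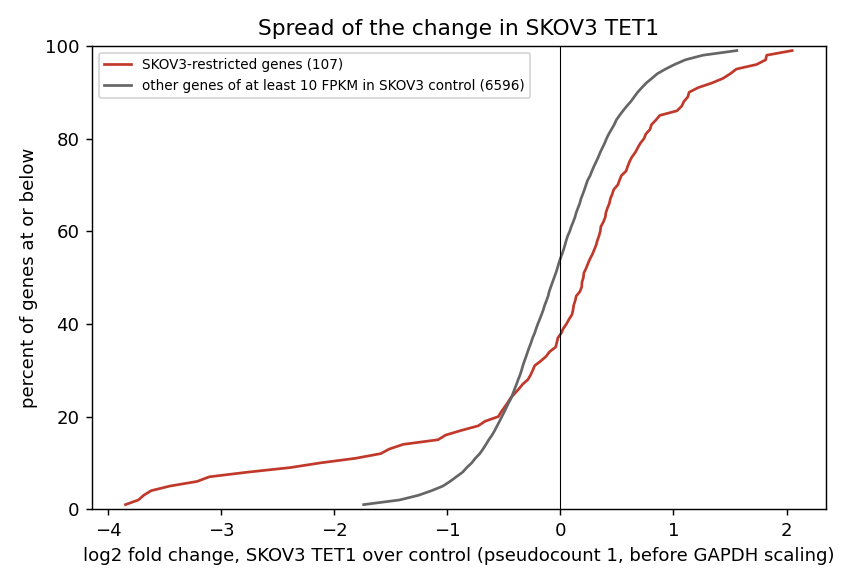
Cumulative distribution of the log2 fold change between SKOV3 TET1 and control, in percent of genes, for the 107 SKOV3-restricted genes and for the 6596 other genes of at least 10 FPKM in the SKOV3 control. The SKOV3-restricted genes reached further at both ends, with 12 of 107 (11.2%) at least 4-fold lower and 2 at least 4-fold higher.

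The set differed most at its lower end. At least 4-fold lower in SKOV3 TET1 were 12 of 107 genes (11.2%), beside 0.699% of the 13016 genes and 0.728% of the 6596 genes. These 12 were DOK7, MFAP5, LINC00458, SPANXB1, CGB8, KRT5, ID4, PTGES, UPK3B, CLIC3, HR and ANKRD1. At the other end 2 genes (1.87%) were at least 4-fold higher, beside 2.51% and 0.334%. In all, 87 of the 107 genes (81.3%) kept at least 10 FPKM in SKOV3 TET1, whereas 93.6% of the 6596 did. The set lay nearer that limit in the SKOV3 control, with a median of 17.5 FPKM beside 27.2 FPKM. With the lines exchanged, 43 genes had at least 10 FPKM in the HeyC2 control and at most 0.1 FPKM in the SKOV3 control. Of these 43, 32 (74.4%) kept at least 10 FPKM in HeyC2 TET1. In bulk RNA, fewer cells that express a gene and less RNA per cell cannot be told apart.

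The 12 genes did not share a class. DOK7, an adaptor of the muscle kinase MUSK, was at 21.4 FPKM in the SKOV3 control and 0.43 FPKM in SKOV3 TET1, or 49.8-fold lower, and at 0 and 0.07 FPKM in HeyC2. MFAP5, a glycoprotein of elastin-associated microfibrils, was at 29.0 and 1.08 FPKM in SKOV3, or 26.9-fold lower, and at 0.10 and 0.29 FPKM in HeyC2. PTGES, the enzyme that makes prostaglandin E2, was at 11.3 and 0.37 FPKM in SKOV3, or 30.6-fold lower, and at 0 and 0.36 FPKM in HeyC2. The estimated fragments of these 3 genes were 367, 561 and 128 in the SKOV3 control and 6.89, 19.5 and 3.90 in SKOV3 TET1. The long noncoding RNA LINC00458 was at 28.7 and 1.23 FPKM in SKOV3, or 23.4-fold lower, and at 0 and 0.69 FPKM in HeyC2. CLIC3, an intracellular chloride channel protein, was at 36.4 and 5.61 FPKM in SKOV3, and ANKRD1, a nuclear ankyrin repeat protein known as a target of the YAP pathway, was at 16.5 and 3.33 FPKM. CGB8, a beta subunit of chorionic gonadotropin, was at 11.5 FPKM in the SKOV3 control and listed at 0 in the other 3 libraries, so no fold is given. CGB8 and SPANXB1 belong to families of near-identical copies between which reads can be split, so their values are uncertain. Cell type markers also differed between the SKOV3 libraries. Of the epithelial ovarian markers, KRT7 and the mesothelin gene MSLN were lower in SKOV3 TET1 as KRT5 and UPK3B were. KRT7 is given above, and MSLN was at 10.3 FPKM in the control and 0.08 FPKM in TET1. Others of the list were higher, PAX8 at 74.6 and 131 FPKM, KRT8 at 560 and 775 FPKM and KRT18 at 193 and 255 FPKM. CDH1 was also higher, at 2.24 and 6.3 FPKM, and EPCAM was nearly level, as given above. WT1, MUC16 and WFDC2 stayed under 1 FPKM in both. The mesenchymal marker SPARC was at 9.27 and 144 FPKM, while the summed level of the 5 mesenchymal markers was 1295 and 1062 FPKM. The summed level of 5 fibroblast genes was 1.04 FPKM in the control and 34.1 FPKM in TET1, of which COL1A1 made up 27.7 FPKM, while DCN was at 0 in TET1. The immune gene CD3E was at 0 in both. The part of these markers in the changes of the set was not tested.

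**Figure D3:**
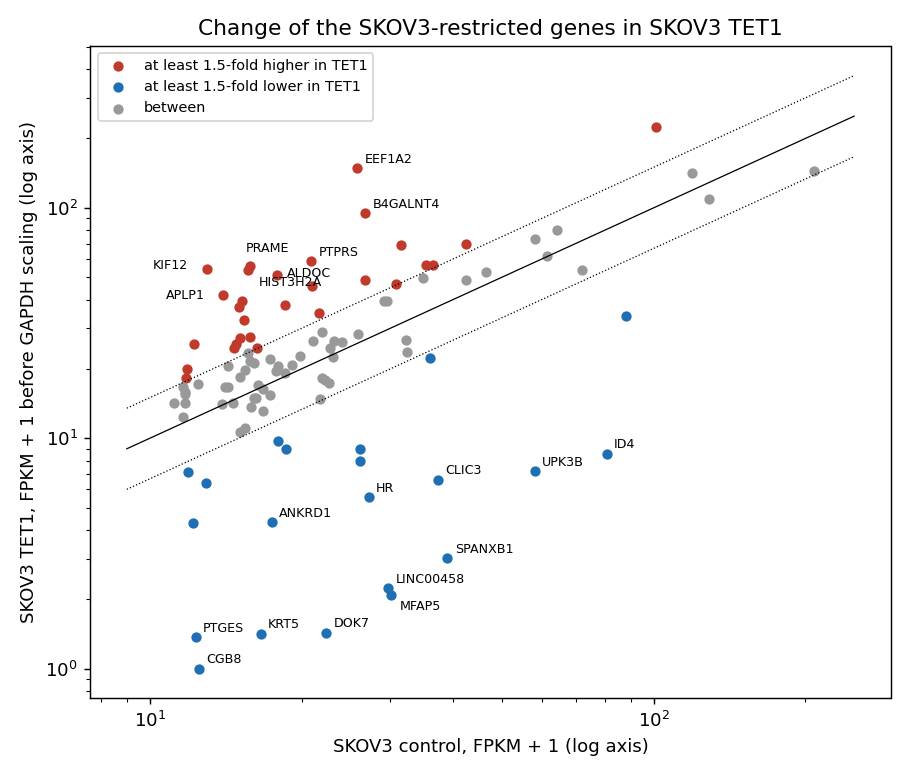
FPKM plus 1 of each of the 107 genes in the SKOV3 control (x, log axis) and SKOV3 TET1 (y, log axis), with the line of equal level and dotted lines at 1.5-fold. The 29 higher genes are red, the 21 lower genes blue and the 57 between grey, and the 12 at least 4-fold lower reach from ANKRD1, with a log2 change of -2.01, down to CGB8 at 0 FPKM in TET1, and FBXO2 follows at -1.71.

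The cancer-testis antigens, proteins otherwise made mainly in the germ line, went in opposite directions. SPANXB1 was at 38.0 FPKM in the SKOV3 control and 2.01 FPKM in SKOV3 TET1, or 18.9-fold lower, and was listed at 0 in both HeyC2 libraries. PRAME was at 14.8 and 54.8 FPKM in SKOV3, or 3.71-fold higher, and at 0.07 FPKM in both HeyC2 libraries. Neither gene passed 0.1 FPKM in HeyC2 TET1. PRAME overlaps a gene on the opposite strand, from which its reads cannot be told apart because strand use is not stated.

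The other genes that were much higher in SKOV3 TET1 were of mixed function. EEF1A2, a translation elongation factor normally restricted to neurons and muscle, was at 24.8 and 147 FPKM in SKOV3 control and TET1, or 5.95-fold higher, and listed at 0 in both HeyC2 libraries. Its near-identical relative EEF1A1 was at 2156 and 2169 FPKM in the same SKOV3 libraries and at 4443 and 4211 FPKM in HeyC2. KIF12, a kinesin motor, was at 11.99 and 53.3 FPKM in SKOV3, or 4.45-fold higher, and listed at 0 in HeyC2. B4GALNT4, a glycosyltransferase, was at 25.8 and 93.8 FPKM in SKOV3, and at 0.04 and 0.22 FPKM in HeyC2. None of these exceeded 0.22 FPKM in HeyC2 TET1. HIST3H2A, a histone H2A gene, was at 14.7 and 53.0 FPKM in SKOV3 and at 0 and 9.08 FPKM in HeyC2, so it was higher in TET1 in both lines. The amyloid precursor-like gene APLP1 was at 13.0 and 40.7 FPKM, the glycolytic aldolase ALDOC at 16.8 and 49.9 FPKM and the receptor tyrosine phosphatase PTPRS at 19.9 and 57.6 FPKM in SKOV3 control and TET1. All 3 stayed at or under 0.10 FPKM in HeyC2. Both cysteine proteases of the lysosome, CTSH and CTSF, were higher too, with CTSH at 17.6 and 36.8 FPKM and CTSF at 20.7 and 34.0 FPKM.

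Of 11 secreted and matrix genes, 3 were at least 1.5-fold higher in SKOV3 TET1, 3 were lower and 5 lay between. Of 11 receptors, ligands and surface proteins, 2 were higher, 1 was lower and 8 lay between. Over all genes tested, 28.6% were higher and 11.5% lower. EDN1, the vasoconstrictor endothelin-1, was at 87.0 and 33.1 FPKM in SKOV3 control and TET1 and at 0 and 0.84 FPKM in HeyC2. VCAN, the matrix proteoglycan versican, was at 63.4 and 78.9 FPKM in SKOV3 and at 0.07 and 0.76 FPKM in HeyC2. LCN2, an iron-siderophore binding protein of innate defence, was at 30.5 and 68.2 FPKM in SKOV3 and listed at 0 in both HeyC2 libraries. EDN1 was therefore lower, LCN2 higher and VCAN within 1.5-fold in SKOV3 TET1. FGFR4, a fibroblast growth factor receptor, was at 10.6 and 15.7 FPKM in SKOV3, and SLC29A2, a nucleoside transporter, was at 10.6 and 11.4 FPKM. HLA-F, a nonclassical class I antigen, was at 60.3 and 60.6 FPKM in SKOV3 and at 0.10 and 0.18 FPKM in HeyC2. PALM, a membrane-bound protein of cell processes, was at 57.01 and 72.1 FPKM in SKOV3 and at 0 and 0.06 FPKM in HeyC2, and C1orf233 was at 45.4 and 51.6 FPKM in SKOV3 and at 0.07 and 0 FPKM in HeyC2. HLA-F shares sequence with other class I genes, so its level is uncertain.

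In HeyC2 TET1, 38 of the 107 genes (35.5%) were listed over 0.1 FPKM, 14 (13.1%) at 0.5 FPKM or more and 7 (6.54%) at 1 FPKM or more. Of all 12306 genes with at most 0.1 FPKM in the HeyC2 control, 8.55%, 2.02% and 0.739% did so. The share depended on the level in SKOV3, however. It was 4.92% over the 10262 genes also silent in the SKOV3 control, 25.9% over the 1330 genes between 0.1 and 1 FPKM there, 27.0% over the 607 genes between 1 and 10 FPKM, and 35.5% over the 107 genes. At the limit of 0.5 FPKM the shares in the same order were 0.848%, 6.32%, 10.5% and 13.1%. At both limits the genes that SKOV3 expressed below 10 FPKM were thus also detected more often than those silent in both controls. In the mirror set of 43 genes with at least 10 FPKM in the HeyC2 control and at most 0.1 FPKM in the SKOV3 control, 11 (25.6%) were over 0.1 FPKM in SKOV3 TET1, beside 13.7% of the 11306 genes silent in the SKOV3 control and 50.2% of the 275 such genes between 1 and 10 FPKM in HeyC2. Of the mirror set, 3 genes (6.98%) reached 0.5 FPKM and 2 (4.65%) reached 1 FPKM, beside 4.52% and 1.88% of the silent genes.

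Most detections were faint. Of the 38 genes, 24 lay under 0.5 FPKM, 15 rested on fewer than 3 estimated fragments and 11 on 10 or more. Their level in HeyC2 TET1 was 1.23% of that in the SKOV3 control in the median gene. The other 69 genes stayed at or under 0.1 FPKM, and 34 were listed at 0 in both HeyC2 libraries. In the TET1 libraries 105 of the 107 genes were higher in SKOV3 than in HeyC2, and 94 were at least 10-fold higher. The limits had already set these genes far apart in the controls of the same lines, and the shares over all genes were not counted. The original limits were met again by 60 of 107 (56.1%), with at least 10 FPKM in SKOV3 TET1 and at most 0.1 FPKM in HeyC2 TET1, beside 177 of all 26506 genes (0.668%). Since each line's TET1 and control cells are the same line, this is a count of how far the pattern held, not a new sample of the lines. The 3 genes of the ERBB2 amplicon, which mark SKOV3 cells, summed to 48.8 FPKM in the HeyC2 control and 58.1 FPKM in HeyC2 TET1, against 1467 FPKM in the SKOV3 control. The endothelial gene CDH5 was at 18.9 and 94.6 FPKM in the HeyC2 libraries, with PECAM1 and VWF at most 0.42 FPKM. The part of either in the detections was not tested.

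**Figure D4:**
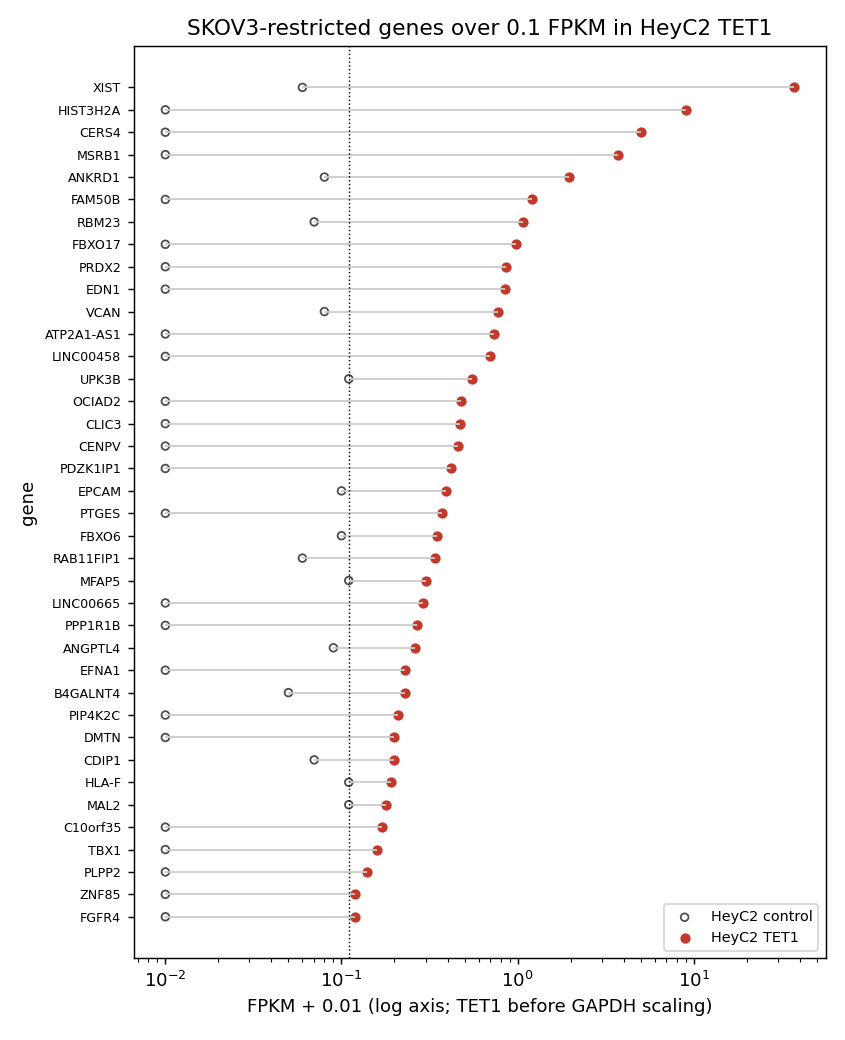
The 38 SKOV3-restricted genes over 0.1 FPKM in HeyC2 TET1, ordered by that level, with FPKM plus 0.01 on a log axis, open circles for the HeyC2 control and filled circles for HeyC2 TET1. XIST at 37.1 FPKM and HIST3H2A at 9.08 FPKM stand above the rest, and 24 of the 38 lie under 0.5 FPKM.

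The highest was XIST, the noncoding RNA that coats the inactive X chromosome. It was at 0.05 FPKM in the HeyC2 control and 37.1 FPKM in HeyC2 TET1, and at 21.0 and 17.3 FPKM in SKOV3 control and TET1. Its level in HeyC2 TET1 thus exceeded that in either SKOV3 library, and rested on an estimated 4895 fragments against 7.06 in the HeyC2 control. TSIX, which overlaps XIST on the opposite strand, was at 0.13 and 8.07 FPKM in HeyC2 and at 5.39 and 4.41 FPKM in SKOV3, and reads of the 2 genes cannot be told apart here.

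Next came genes of a few FPKM. HIST3H2A reached 9.08 FPKM from 0, on an estimated 19.5 fragments, and its neighbour HIST3H2BB was at 0 and 1.57 FPKM in HeyC2. CERS4, a ceramide synthase, was at 0 and 5.02 FPKM in HeyC2 and at 14.1 and 17.5 FPKM in SKOV3. MSRB1, a selenoprotein that repairs oxidised methionine, was at 0 and 3.70 FPKM in HeyC2 and at 21.8 and 23.6 FPKM in SKOV3. CERS4 and MSRB1 rested on an estimated 54.9 and 27.6 fragments, and neither differed by 1.5-fold between the SKOV3 libraries. CERS1, another ceramide synthase of the set, was listed at 0 in both HeyC2 libraries and at 11.4 and 16.2 FPKM in SKOV3. ANKRD1 was at 0.07 and 1.96 FPKM in HeyC2, opposite to its direction in SKOV3. FAM50B, an imprinted retrocopy, was at 0 and 1.19 FPKM in HeyC2 and at 14.1 and 9.62 FPKM in SKOV3. RBM23, an RNA-binding protein, was at 0.06 and 1.06 FPKM in HeyC2 and at 31.4 and 22.7 FPKM in SKOV3, and overlaps an antisense gene. FBXO17, a substrate adaptor of a ubiquitin ligase, was at 0 and 0.97 FPKM in HeyC2 and at 11.2 and 24.7 FPKM in SKOV3, so it was higher in TET1 in both lines. PRDX2 and EDN1, at 0.85 and 0.84 FPKM, rested on 4.26 and 10.7 estimated fragments.

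Genes detected in HeyC2 TET1 were found among both the lower and the higher genes of SKOV3 TET1. Of the 21 genes that were lower in SKOV3 TET1, 11 were over 0.1 FPKM in HeyC2 TET1. Of the 29 that were higher, 7 were, beside 38 of all 107 genes (35.5%). The share was thus larger among the lower genes than among the higher, in small groups, and the difference was not tested. By class, 7 of 14 metabolic, redox and repair enzymes, 4 of 8 noncoding RNAs, 4 of 12 epithelial genes, 4 of 11 secreted and matrix genes and 4 of 10 transcription and chromatin factors were over 0.1 FPKM, and 1 of 8 signalling genes was. With so few genes per class these shares are given as counts only.

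The bases upstream of the start site are shown for 3 genes found only in HeyC2 TET1 among the HeyC2 libraries (MSRB1, HIST3H2A and FAM50B), for XIST, and for MGMT, which stayed at 0 in both HeyC2 libraries. Each is the stretch of 250 bases that ends at the base before the RefSeq start site on GRCh38.p14, written 5′ to 3′ along the gene's strand, with every CpG, the dinucleotide TET1 acts on, in capitals. MSRB1 is chr16:1943200-1943449 on the minus strand with 23 CpG, HIST3H2A chr1:228457874-228458123 on the minus strand with 15, FAM50B chr6:3849123-3849372 on the plus strand with 18, XIST chrX:73852715-73852964 on the minus strand with 5, and MGMT chr10:129466991-129467240 on the plus strand with 36.
MSRB1: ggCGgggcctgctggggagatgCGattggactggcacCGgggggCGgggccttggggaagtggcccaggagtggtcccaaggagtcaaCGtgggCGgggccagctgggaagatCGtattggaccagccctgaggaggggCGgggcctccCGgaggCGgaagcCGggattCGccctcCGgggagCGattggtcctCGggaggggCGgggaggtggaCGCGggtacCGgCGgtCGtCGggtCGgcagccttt
HIST3H2A: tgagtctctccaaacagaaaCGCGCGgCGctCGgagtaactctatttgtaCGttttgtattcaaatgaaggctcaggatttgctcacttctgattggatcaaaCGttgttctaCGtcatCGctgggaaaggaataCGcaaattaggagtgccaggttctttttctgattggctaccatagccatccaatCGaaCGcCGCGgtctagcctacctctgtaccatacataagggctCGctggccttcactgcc
FAM50B: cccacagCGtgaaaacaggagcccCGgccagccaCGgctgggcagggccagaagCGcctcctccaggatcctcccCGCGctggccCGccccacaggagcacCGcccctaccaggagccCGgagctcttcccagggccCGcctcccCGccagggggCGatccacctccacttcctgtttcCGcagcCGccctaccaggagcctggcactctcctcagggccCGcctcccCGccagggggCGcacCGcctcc
XIST: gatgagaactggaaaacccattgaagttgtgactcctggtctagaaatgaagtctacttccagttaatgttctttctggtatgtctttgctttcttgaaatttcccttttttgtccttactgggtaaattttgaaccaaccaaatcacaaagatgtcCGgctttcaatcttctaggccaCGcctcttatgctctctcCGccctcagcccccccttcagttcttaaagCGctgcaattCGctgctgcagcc
MGMT: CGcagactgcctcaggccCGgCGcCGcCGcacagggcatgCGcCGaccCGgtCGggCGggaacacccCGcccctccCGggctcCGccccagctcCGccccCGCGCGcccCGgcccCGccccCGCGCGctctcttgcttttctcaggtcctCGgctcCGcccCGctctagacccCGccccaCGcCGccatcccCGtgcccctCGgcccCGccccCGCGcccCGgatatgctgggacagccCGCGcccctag
PRDX2, at 0.85 FPKM in HeyC2 TET1, has 38 CpG over the same stretch and FBXO17, at 0.97 FPKM, has 26.

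The start sites of the set held fewer CpG than those of other expressed genes. Over 250 bases before to 50 after the start on GRCh37, the ratio of observed to expected CpG had a median of 0.773 over 106 of the 107 genes, 0.891 over 6524 other genes over the SKOV3 limit and 0.284 over 5432 genes silent in all 4 libraries. A ratio of at least 0.6, a usual limit for a CpG island, was found in 70.8% of the set and 93.8% of the other genes over the SKOV3 limit. In the mirror set of 43 genes the median was 0.664 and 60.5% reached 0.6, so the lower ratio was not particular to this set. Over all 22089 genes with a window the median was 0.754 and 63.8% reached 0.6. Within the set, the 12 genes that were at least 4-fold lower in SKOV3 TET1 had a median ratio of 0.377, and 3 of them reached 0.6, while the other 94 had a median of 0.809 and 76.6% reached it. Other genes over the SKOV3 limit that were at least 4-fold lower had a median of 0.635 over 46 genes. The 14 genes at 0.5 FPKM or more in HeyC2 TET1 had a median of 0.635, and the 68 at or under 0.1 FPKM a median of 0.825. These groups were formed after the values were seen and the ratios are a description.

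**Figure D5:**
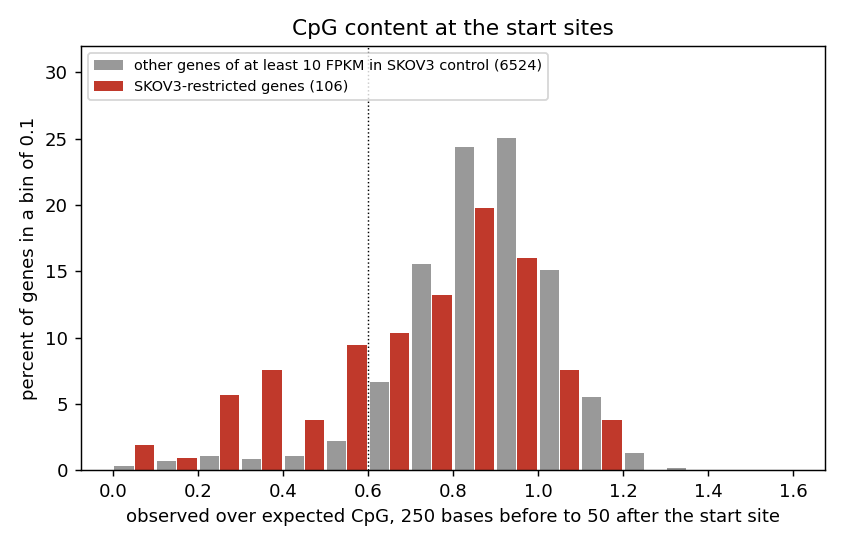
Ratio of observed to expected CpG from 250 bases before to 50 after the start site, as percent of genes in bins of 0.1, for 106 SKOV3-restricted genes and 6524 other genes of at least 10 FPKM in the SKOV3 control. The dotted line marks 0.6, which 70.8% of the SKOV3-restricted genes and 93.8% of the others reach.

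A search of the same windows on both strands found the E-box CACCTG, the form bound by SNAIL and ZEB factors, in 26.4% of the set, beside 15.9% of the other genes over the SKOV3 limit and 20.4% of all 22089 genes with a window. The box GGGCGG, bound by Sp1, was in 73.6% of the set, 78.5% of the other genes over the SKOV3 limit and 57.9% of all genes. The motif TATAAA was in 5.66%, 4.69% and 10.1%, and the AP-1 site TGACTCA in 0.943%, 2.36% and 3.70%. A match is a run of letters and not a site shown to be bound.

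By position, 23 of 106 genes (21.7%) lay on chromosome 19, beside 7.34% of the other genes over the SKOV3 limit, and none on chromosomes 3 and 18. In SKOV3 TET1, 8 of the 23 were higher and 2 lower, beside 28.6% and 11.5% of all genes tested. In HeyC2 TET1, 7 of the 23 were over 0.1 FPKM, beside 35.5% of the whole set. With so few genes these counts do not set the chromosome 19 genes apart from those shares. Close neighbours were few. On chromosome 1 the F-box genes FBXO2, FBXO44 and FBXO6, which encode substrate adaptors of ubiquitin ligases, lie in a row between 11697075 and 11734411 (GRCh37). FBXO2 was at 25.1 and 7.0 FPKM in SKOV3 control and TET1, FBXO6 at 11.2 and 3.30 FPKM and FBXO44, between them, at 16.9 and 19.7 FPKM. FBXO2 and FBXO44 overlap on opposite strands, so their values may share reads. On chromosome 7, ZBED6CL, LRRC61 and RARRES2 lie between 150019728 and 150038751, on chromosome 19 HAPLN4 and TM6SF2 are 1560 bp apart, and on chromosome 8 DMTN and HR are 31894 bp apart. DMTN, which encodes the actin-binding protein dematin, was at 17.6 and 7.98 FPKM in SKOV3, lower in TET1 like HR. Of 212 genes flanking those of the set, 44.3% were over 1 FPKM in the HeyC2 control and 52.4% in the SKOV3 control. Of the genes that flank the other genes over the SKOV3 limit, 58.6% and 61.5% were. The median of the 212 was 0.245 FPKM in the HeyC2 control and 2 FPKM in the SKOV3 control, beside 3.33 and 4.43 FPKM. The neighbours of the set were thus lower in HeyC2 in the median, though silence did not extend over all of them. Genes of the set themselves made up 7 of the 212.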

How the data were processed

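RNA of HeyC2 and SKOV3 cells was sequenced in 1 TruSeq library per condition (paired ends of 150 bp). The authors aligned the reads to hg19 and deposited 1 table of FPKM per cell line (their processing notes name Bowtie2 2.2.6 and RSEM 1.2.17), with each TET1 column multiplied to match GAPDH. Read totals and strand use are not given in the sources used here. The constant was recovered as the step between deposited FPKM values, and 100% of distinct values under 40 FPKM lay within 0.005 FPKM of its grid. The TET1 values were divided by it, rounded to 0.01 FPKM and compared with the control as log2 ratios with a pseudocount of 1 FPKM. The background was the 13016 genes with a mean of at least 1 FPKM. Detectable means over 0.1 FPKM.

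Depth and fragments were estimated from the smallest FPKM and the transcript length, cover counting only and stay approximate. With 1 library per condition no test and no p-value was computed. Positions came from GENCODE v44 lifted to GRCh37, in which 106 of 107 genes were matched by symbol (6 by an older one), and promoter sequences from RefSeq on GRCh38.p14. Of the 107 genes, 29 overlap another gene, 22 on the opposite strand.

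The genes, the wider lists and the tests were chosen with earlier results of these data known, and the classes after the names were seen. Genes were named as the 15 highest in the SKOV3 control, the 8 largest rises and 8 largest falls, the 10 highest in HeyC2 TET1, up to 4 of each list and those at the limits; others were chosen after their values were seen. Some genes that this rule names are not reported here. Alternatives are given in the closing section. Scripts were tested on simulated data and used Python 3.11.15, numpy 2.4.6, pandas 2.3.3 and matplotlib 3.10.9.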

Additional observations from a re-analysis of the deposited data

Results flagged for a closer look

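4 of the SKOV3-restricted genes went in opposite directions in the 2 cell lines, at least 1.5-fold higher in HeyC2 TET1 and at least 1.5-fold lower in SKOV3 TET1. On the log2 scale with 1 FPKM added, ANKRD1 changed by 1.47 in HeyC2 and by -2.01 in SKOV3. EDN1 changed by 0.88 and -1.37, LINC00458 by 0.76 and -3.74, and the antisense RNA ATP2A1-AS1 by 0.78 and -0.73. The difference between the lines was not tested, since each condition has 1 library. The share of all genes that went this way was not counted. In HeyC2 TET1, ANKRD1 rested on an estimated 21.6 fragments, EDN1 on 10.7, ATP2A1-AS1 on 8.96 and LINC00458 on 6.3. Because the set was chosen at most 0.1 FPKM in the HeyC2 control, a rise is the only direction in which these genes could move by that much in HeyC2. The SKOV3 control also chose the set, so the part of a fall due to a control value high by chance cannot be told apart.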

How the results depend on the processing

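No paired analysis was possible because each comparison has 1 library a side and its results come from no test. The number of SKOV3-restricted genes was 228 with a SKOV3 limit of 5 FPKM, 48 with 20 FPKM and 71 with HeyC2 at 0. It was 132 with a HeyC2 limit of 0.2 FPKM and 200 when genes were chosen on TPM, with limits of 10 and 0.1 TPM. In the same order, 73, 22, 24, 50 and 69 of them were over 0.1 in HeyC2 TET1, the last in TPM and the others in FPKM. TPM rescales each library to a fixed sum, larger than the FPKM sums of 482524 in the HeyC2 control and 472909 in the SKOV3 control. The same numbers in TPM are thus a looser SKOV3 limit and a stricter HeyC2 limit than in FPKM. Of the 107 genes, 61 were over 0 FPKM, 14 at 0.5 FPKM or more and 7 at 1 FPKM or more. The median log2 change in SKOV3 TET1 was 0.35 for genes chosen on TPM, 0.62 as deposited and 0.011 after median centring. The count of genes at least 1.5-fold higher was 57 as deposited, 16 at a 2-fold limit and 49 at a 1.2-fold limit. Nothing turned its direction under these settings. Of 264 alternative values of 44 named genes, 13 moved, 6 each at pseudocounts of 0.01 and 0.1 FPKM and 1 under TPM. Leaving out the genes that overlap another gene, an alternative added after seeing the data, left 78 genes, of which 21 were higher, 17 lower and 29 over 0.1 FPKM in HeyC2 TET1.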
